A study of Mus musculus with 4 samples.

Results

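Genes that write, erase and read histone acetylation were examined in GV oocytes of the mouse, cells held in meiotic prophase with an intact germinal vesicle. The set held every gene with a symbol of the Hdac, Kat, Sirt or Brd series (a name followed by a number and, for some Kat genes, a letter), with Brdt, Crebbp, Ep300 and Hat1. This gave 37 of the 53677 gene symbols counted: 11 acetyltransferases, 11 zinc-dependent deacetylases, 7 sirtuins and 8 bromodomain readers. Of these, 36 passed the filter on low counts, and Hdac5, which had no more than 15 counts in any library, did not. Control oocytes, called Ctrl, were compared with oocytes in which Ell3 was knocked down (Ell3 KD), with 2 libraries per group and 5 pooled oocytes per library. Ell3 belongs to the ELL family, whose proteins help RNA polymerase II to elongate. Both groups came from females primed with PMSG (7.5 IU), a hormone preparation that drives follicle growth, and collection was 48 h after it. The sources used here give no strain, age or knockdown method. Nothing in the labels ties libraries to separate animals, so p-values reflect only how far these libraries vary, and that variation may be technical.

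Acetylation of histone lysines loosens the contact between DNA and the nucleosome and makes a docking site for bromodomains. Acetyltransferases add the group from acetyl-CoA, zinc-dependent deacetylases remove it by hydrolysis, and sirtuins remove it or related acyl groups with NAD as a cosubstrate. In growing oocytes histones are acetylated, and deacetylation by HDAC enzymes during maturation is known to be needed for correct chromosome segregation. Fully grown GV oocytes are largely silent in transcription, so an mRNA level there reflects stored message as well as synthesis.

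The counts per library summed to between 45131278 and 89632815, and both Ell3 KD libraries were deeper than both Ctrl libraries. Levels are given as CPM, counts scaled to a total of 1000000 with TMM factors. Ell3 itself lay at 8.12 and 9.79 CPM in Ctrl and at 2.88 and 2.80 CPM in Ell3 KD, 3.15-fold lower (log2 fold change -1.66 ± 0.14, SE; edgeR adjusted p = 6.04e-10). Serinc4, on the same strand, shares 65.6% of the exonic bases of Ell3 and had 5 to 11 counts per library. The 14 oocyte markers, led by Zp3 and Zp1 and all with counts, summed to between 22381 and 23764 CPM per library, lower in Ell3 KD without overlap. One by one they went both ways, with 3 called higher, 5 lower and 6 not called, Zp3 among the last (edgeR adjusted p = 0.900). The 12 markers of cumulus and granulosa cells summed to between 28.8 and 31.7 CPM, led by Cyp19a1 and Ptx3, and those ranges overlapped between the groups. Of the 7 of them tested, 1 was called higher and 6 were not called. The 6 theca markers, led by Cyp11a1 and Hsd3b1, summed to between 3.35 and 4.27 CPM, lower in Ell3 KD as a sum, with no count for 1 of them, although Hsd3b1 was itself called higher (0.517 ± 0.0728 and 1.01 ± 0.297 CPM, edgeR adjusted p = 0.0395). The 8 blood markers, led by Alas2 and Ptprc, summed to between 0.124 and 0.547 CPM, again lower in Ell3 KD, with no count for 5 of them. The part of these cells in the results was not tested, and fewer cells of a type and less RNA per cell cannot be told apart in pooled oocytes.

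The upstream sequences of 3 genes are printed because the results turn on them: Brdt had the largest rise among the 36 genes tested, Hdac7 the largest fall, and Kat8 the highest level. The bases come from RefSeq promoter windows on GRCm38.p6, 5′ to 3′ on the gene's strand, cut to the stretch without an annotated exon. Capitals mark a CCAAT box (CCAAT), a GC box (GGGCGG) or an E-box (CACGTG) on either strand.
Brdt (chr5:107330944-107331158, plus strand): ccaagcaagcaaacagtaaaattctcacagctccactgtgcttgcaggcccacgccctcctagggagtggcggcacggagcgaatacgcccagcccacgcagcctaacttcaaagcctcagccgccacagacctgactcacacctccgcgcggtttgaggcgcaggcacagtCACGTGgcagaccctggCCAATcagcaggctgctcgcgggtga
Kat8 (chr7:127912267-127912515, plus strand): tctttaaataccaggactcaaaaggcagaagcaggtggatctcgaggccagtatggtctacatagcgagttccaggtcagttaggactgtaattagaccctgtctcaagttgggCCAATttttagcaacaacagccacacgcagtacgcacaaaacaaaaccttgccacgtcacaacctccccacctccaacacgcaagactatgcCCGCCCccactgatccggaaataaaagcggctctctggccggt
Hdac7 (chr15:97844503-97844752, minus strand): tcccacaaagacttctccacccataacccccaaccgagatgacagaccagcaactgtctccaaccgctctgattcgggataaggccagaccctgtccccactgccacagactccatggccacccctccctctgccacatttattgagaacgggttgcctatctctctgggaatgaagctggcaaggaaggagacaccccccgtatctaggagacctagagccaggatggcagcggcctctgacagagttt

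The Brdt stretch held a CCAAT box starting 61 bases and an E-box starting 78 bases before the RefSeq start, and 14 CpG dinucleotides. The Kat8 stretch, 1 of 2 windows of that gene, held a GC box and a CCAAT box, 44 and 136 bases before the start, and the Hdac7 stretch, 1 of 4 RefSeq windows of that gene, held none of the motifs and 6 CpG. RefSeq windows were at hand for 31 of the 37 genes, 44 windows in all. In the 250 bases before the start, a GC box was in 61.4% of these windows, against 32.7% of all 32851 windows. Counted by gene, it was in a window of 24 of the 31 genes, among them all 10 that fell and 3 of the 4 that rose. Hdac7 is among the 10 through a window other than the one printed. Also counted by gene, a CCAAT box was in 14 of the 31 genes, 1 of the 10 that fell and 2 of the 4 that rose. The share by gene was not computed over all genes, and a gene with more windows has more chances of a match. A CCAAT box was in 34.1% against 33.8%, an E-box in 9.09% against 6.02%, an ETS core (CGGAAG) in 18.2% against 13.6% and a TATA box (TATAAA) in 4.55% against 12.4%. A cyclic AMP response element (TGACGTCA) was in 0 of the 44 windows and in 1.55% of all windows. The median number of CpG in these 250 bases was 17.5 in the 44 windows and 6.0 in all. These matches describe letters and not bound sites.

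Divided by the length of the longest annotated transcript, the levels of the 37 genes spanned several orders of magnitude. Kat8 was first in Ctrl at 654.7 ± 1.07 CPM per kb (SD, n = 2, as for every mean that follows), above 99.6% of all genes tested by its mean over the 4 libraries. Kat8, also called MOF, acetylates histone H4 and sits on chromosome 7 from 127912516 to 127925837 of GRCm38. It made up 70.6% of the summed level per kb of the 11 acetyltransferases in Ctrl and 68.1% in Ell3 KD. Hat1, which acetylates newly made histone H4, followed at 111.2 ± 1.33 CPM per kb, then Brdt at 81.5 ± 1.09, Kat14 at 76.2 ± 0.556, Sirt6 at 71.8 ± 0.0769 and Sirt7 at 47.9 ± 0.549 CPM per kb. Brdt is the BET family member known for its role in the testis, and in these oocytes it held 42.2% of the summed level per kb of the 8 bromodomain genes in Ctrl and 47.7% in Ell3 KD.

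Among the deacetylases one gene stood above the rest. Hdac2 lay at 33.0 ± 1.70 CPM per kb in Ctrl, 55.5% of the class, followed by Hdac8 at 11.8 ± 1.02 and Hdac6 at 5.11 ± 0.0938 CPM per kb. Hdac1, the close paralog of Hdac2, lay at 3.32 ± 0.301 CPM per kb in Ctrl, and its level per kb was 0.101 of that of Hdac2. Hdac1 has near-identical copies, given below, so its level, this ratio and the class share of Hdac2 are uncertain. Together with the copies Gm10093 and Gm4864 it summed to 11.9 ± 0.454 CPM in Ctrl, against 6.76 ± 0.614 CPM for Hdac1 alone. Crebbp, at 16.8 ± 0.119 CPM per kb, was 8.97 times its paralog Ep300 at 1.87 ± 0.0521. The lowest genes in Ctrl were Hdac5, Kat2b, Hdac7, Hdac9, Hdac10 and Hdac11, of which Hdac11 was the highest at 0.388 ± 0.0125 CPM per kb. The first 9 places were the same in both groups. Several neighbours in the order did not differ beyond their spread in Ctrl, among them Kat5 (8.94 ± 0.852 CPM per kb) and Sirt2 (8.71 ± 0.594), and Hdac3 (3.52 ± 0.182), Hdac1 (3.32 ± 0.301) and Sirt1 (3.23 ± 0.0388).

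**Figure D1:**
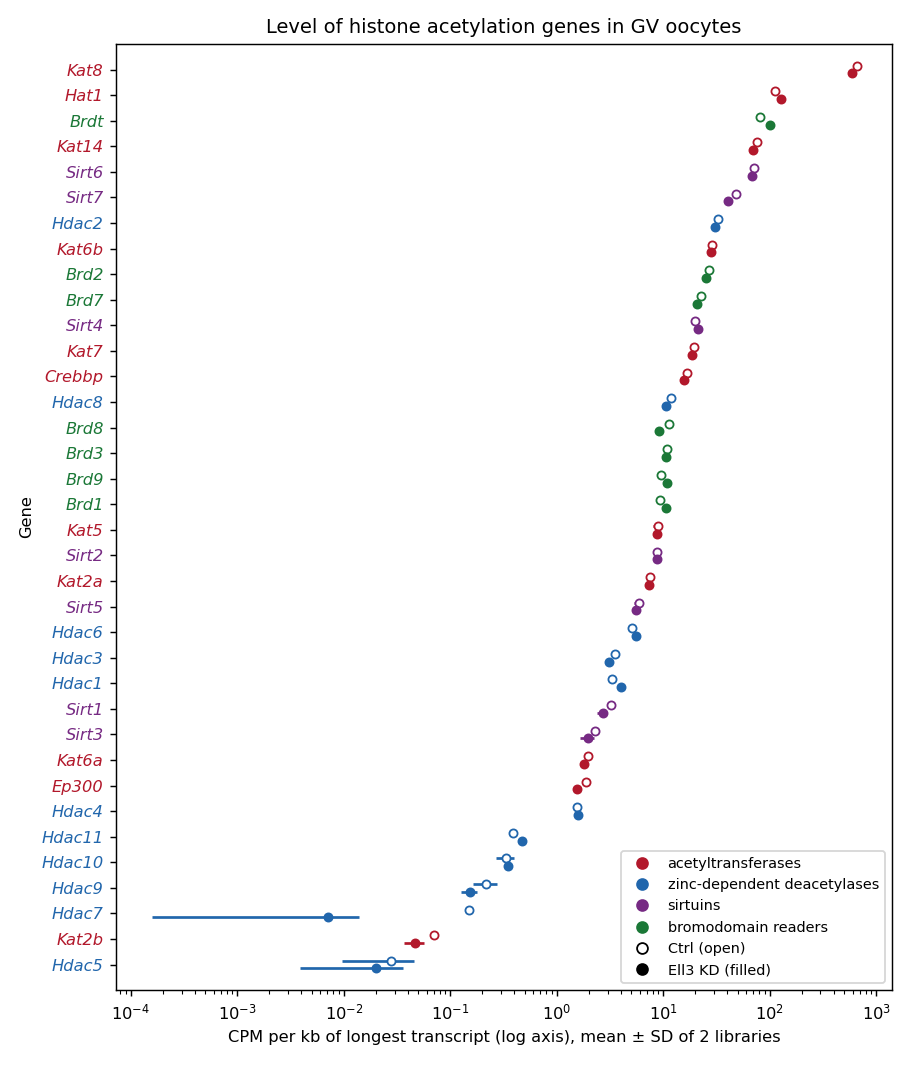
Level of 36 of the 37 genes as CPM per kb of the longest transcript on a log axis, open points for Ctrl and filled points for Ell3 KD (mean ± SD of 2 libraries), coloured by class. Kat8 lies at the top at 654.7 CPM per kb in Ctrl, and the largest gap between groups is that of Hdac7 near the bottom.

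In Ell3 KD, 5 of the 36 genes tested were higher and 11 lower at an edgeR adjusted p under 0.05, and 20 were not called. The share called was 44.4%, against a background of 42.9% of all 17879 genes tested (21.1% higher and 21.8% lower), so the count alone does not set these genes apart. Those that rose were 4 readers, among them Brdt, Brd9 and Brd1, and 1 writer, Hat1. Those that fell were the writers Kat8, Kat14, Crebbp and Ep300, the erasers Hdac2, Hdac7, Sirt1 and Sirt7, and the readers Brd2, Brd7 and Brd8. The median log2 fold change was -0.08 over the 36 genes and -0.0024 over all genes tested. With DESeq2 5 were higher and 5 lower. Over all 28301 genes with a DESeq2 value, 2760 were higher and 2769 lower, fewer than the 3770 and 3906 of edgeR. A further alternative, added once the data had been seen, removed the trend of the fold change on transcript length and GC content. It called 3850 of 17308 genes higher and 3401 lower, and of the 36 genes 6 higher and 6 lower. The number lower was 7 without Ell3 KD replicate 1 and 7 without Ell3 KD replicate 2. With an assumed coefficient of variation of 0.2 between replicates, in place of the fitted spread, only Hdac7 of the 36 genes was called. Over all 17879 genes tested, 861 were higher and 1103 lower in that setting. The longest transcripts of the 36 genes had a median of 3713 bases, against 2826 for all genes tested, and the trend at their length and GC content had a median of -0.05.

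The changes were small. Only Hdac7 was called with a change of at least 1.5-fold, against a background of 14.8% of genes tested, and without Ctrl replicate 1 there were 2 such genes, with Hdac9. At 5 CPM or more, where 31 of the 36 genes lie but Hdac7 does not, the background was 3.64%. For 33 of the 36 genes neither end of the 95% interval reached a 2-fold change, and these included 18 of the 20 genes not called. The libraries of the groups did not overlap for 29 genes, 20 of them lower and 9 higher in Ell3 KD, or 80.6% against a background of 70.7% (35.0% with Ell3 KD above and 35.7% below). Among all genes at 5 CPM or more, where 31 of the 36 genes lie, that background was 76.4%. Among 31 genes with a mean of at least 5 CPM, 15 passed (48.4%, 5 higher and 10 lower), against 52.5% of all genes at that level (27.2% higher and 25.3% lower). Summed per kb over each class, the acetyltransferases lay at 927 ± 1.32 in Ctrl and 875 ± 11.5 CPM per kb in Ell3 KD, a sum that Kat8 dominates. Without Kat8 it was 272.5 ± 0.249 in Ctrl and 279 ± 3.23 CPM per kb in Ell3 KD, the other way round. That rise came from Hat1 alone, at 111.2 ± 1.33 in Ctrl and 127.9 ± 2.64 CPM per kb in Ell3 KD. Every other acetyltransferase had a lower mean in Ell3 KD. The zinc-dependent deacetylases lay at 59.4 ± 2.06 and 56.5 ± 0.5002, the sirtuins at 159 ± 0.313 and 149.6 ± 2.69, and the bromodomain genes at 193 ± 0.0156 and 213 ± 3.04 CPM per kb. These class sums did not overlap between the groups, and that of the bromodomain genes was the higher one in Ell3 KD. Without Brdt it was 111.8 ± 1.10 in Ctrl and 111.6 ± 0.987 CPM per kb in Ell3 KD, which overlapped. The sums without Kat8 or Brdt were chosen after seeing the data.

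**Figure D2:**
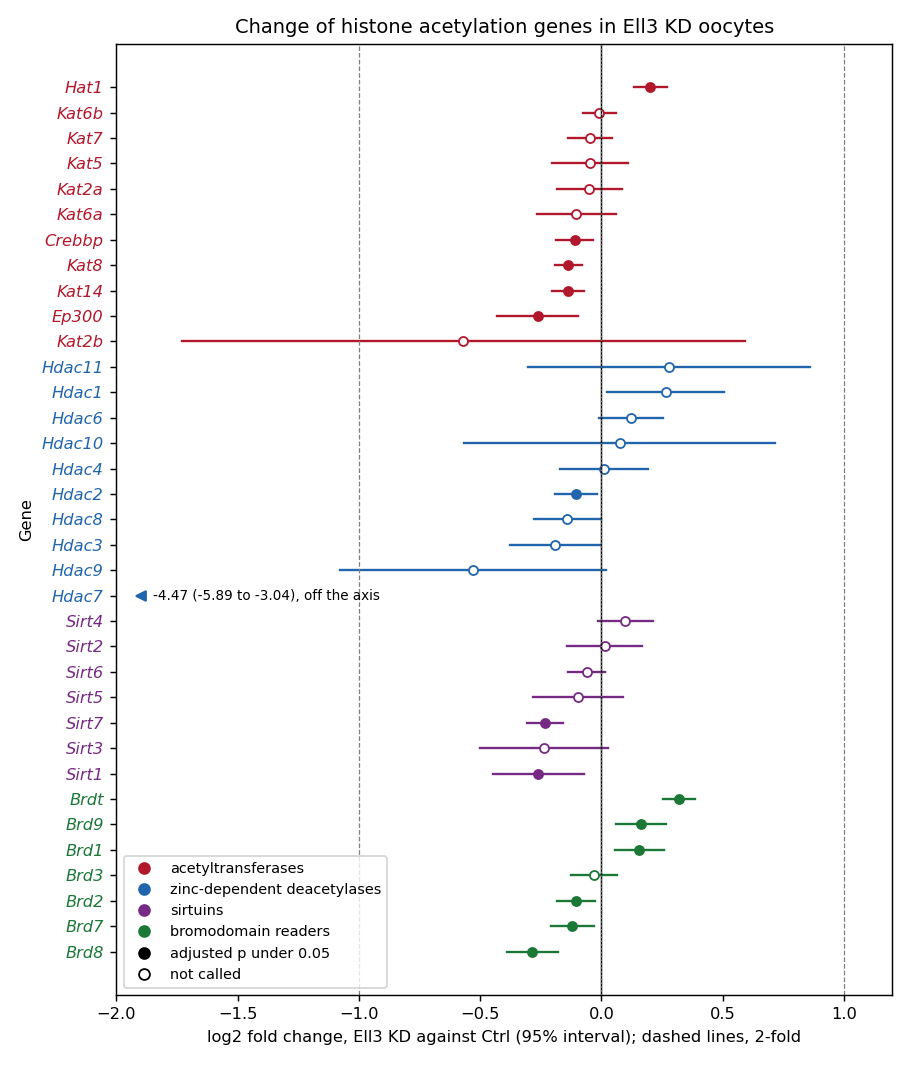
Log2 fold change of Ell3 KD against Ctrl with its 95% interval for 35 of the 36 genes tested, grouped by class, filled where the edgeR adjusted p was under 0.05. Most intervals lie well inside the dashed 2-fold lines, and Hdac7, at -4.47, is off the axis.

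Of the 11 acetyltransferases, 4 fell and 1 rose, against 21.8% and 21.1% of all genes tested. At 5 CPM or more, where 10 of the 11 lie, those shares were 25.3% and 27.2%. The median log2 fold change of the 11 acetyltransferases was -0.10. DESeq2 called 2 lower and 1 higher, and with the length and GC trend removed 1 was lower and 1 higher, and the median log2 fold change of acetyltransferases was -0.000452. Kat8 lay at 1033 and 1035 CPM in Ctrl and at 932 and 950.0 CPM in Ell3 KD. Both Ell3 KD libraries were below both Ctrl libraries, and the log2 fold change was -0.14 ± 0.03 (edgeR adjusted p = 2.70e-04). Kat14, an acetyltransferase of the ATAC complex, lay at 291 and 288 CPM in Ctrl and 260.2 and 266 CPM in Ell3 KD. Here too the groups did not overlap (log2 fold change -0.14 ± 0.03, edgeR adjusted p = 0.00116). With the trend on length and GC content removed it was not called (log2 fold change -0.04, adjusted p = 0.279). Exons of Kat14 share 14.7% of their length with Pet117 on the same strand, which had no count in any library. Prss8, on the opposite strand, overlaps 4.22% of the exonic bases of Kat8.

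Crebbp and Ep300 encode paralogous coactivators with broad acetyltransferase activity. Crebbp lay at 181 and 182 CPM in Ctrl and at 173 and 163 CPM in Ell3 KD (log2 fold change -0.11 ± 0.04, edgeR adjusted p = 0.0167). Ep300 lay at 18.3 and 17.5 CPM in Ctrl and at 14.2 and 15.7 CPM in Ell3 KD (log2 fold change -0.26 ± 0.08, edgeR adjusted p = 0.00991). For both the Ell3 KD libraries were the lower ones without overlap. Crebbp was not called without Ell3 KD replicate 2 (edgeR adjusted p = 0.326), and Ep300 was not called without Ell3 KD replicate 1 (edgeR adjusted p = 0.183). Neither was called with DESeq2 (adjusted p = 0.0516 for Crebbp and 0.0759 for Ep300) or with the length and GC trend removed, where Crebbp had a log2 fold change of 6.4e-05 and Ep300 of -0.16. Crebbp was 9.90 and 10.4 times Ep300 in counts in Ctrl and 12.2 and 10.4 times in Ell3 KD, which overlapped.

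Hat1 was the acetyltransferase that rose. It lay at 209 and 213 CPM in Ctrl and at 239 and 247 CPM in Ell3 KD (log2 fold change 0.20 ± 0.03, edgeR adjusted p = 2.84e-05). Both Ell3 KD libraries were above both Ctrl libraries. The ratio of Hat1 to Kat8 counts, which needs no scaling, was 0.203 and 0.206 in Ctrl and 0.257 and 0.259 in Ell3 KD. These could not overlap, because Hat1 was above and Kat8 below Ctrl in both Ell3 KD libraries. The exact two-sided permutation test of the ratio was thereby fixed at p = 0.333, the smallest that 2 libraries against 2 allow, and adds no support. The remaining acetyltransferases were not called. Kat6b, which like Kat6a and Kat7 is a MYST enzyme working with BRPF proteins, lay at 220.1 ± 0.386 CPM in Ctrl and 219 ± 0.882 in Ell3 KD, with a 95% interval of -0.08 to 0.06 for the log2 fold change. Kat7 (-0.05), Kat6a (-0.10), Kat5 of the TIP60 complex (-0.05) and Kat2a of SAGA and ATAC (-0.05) had intervals that included 0. Rnaseh2c, on the opposite strand, overlaps 12.1% of the exonic bases of Kat5 and had 647 to 1266 counts per library, so counts of Kat5 are uncertain if strand was not used. Kat2b, the paralog of Kat2a, had only 12 to 22 counts per library and an interval from -1.73 to 0.59.

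None of the 10 zinc-dependent deacetylases tested rose and 2 fell by edgeR, against 21.1% and 21.8% of all genes tested. At 5 CPM or more, where 6 of the 10 lie, those shares were 27.2% and 25.3%. The median log2 fold change of the 10 deacetylases was -0.05. At an unadjusted edgeR p under 0.05, 1 was higher and 4 lower, and DESeq2 and limma-voom called 0 higher and 1 and 2 lower. With edgeR, 1 was lower without either Ell3 KD replicate, 1 higher and 3 lower without Ctrl replicate 2, and 4 lower with library totals alone. Hdac7, of class IIa, which is known for shuttling between nucleus and cytoplasm, was credited with 38 and 36 counts in the Ctrl libraries but with 1 and 4 in those of Ell3 KD. This was 0.832 and 0.729 CPM against 0.0113 and 0.0619 CPM, so that the deeper libraries held the fewer counts. In summed counts, 74 against 5, it was 23.9-fold lower in Ell3 KD, with an exact 95% interval of 9.78 to 75.6 that covers counting error only. The fitted log2 fold change was -4.47 ± 0.69 (edgeR adjusted p = 1.05e-05). A fall at least as large in the fit was seen in 16 of 1538 genes tested with 0.5 to 1 CPM in Ctrl, Hdac7 included, or 1.04%, and 17.0% of those genes were called lower. This share is a description and not a test. Hdac7 was picked for its fall and passed the filter on low counts only through Ctrl. The range of levels was also set on the Ctrl values that enter the fold change. Hdac7 spans bases 97792664 to 97844502 of chromosome 15 (GRCm38, minus strand). Its exons overlap Slc48a1 on the opposite strand by 29 bases, and Slc48a1 had between 2825 and 4593 counts per library.

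Hdac2, the most abundant deacetylase gene, lay at 111 and 103 CPM in Ctrl and at 99.3 and 99.9 CPM in Ell3 KD. The groups did not overlap, and the log2 fold change was -0.10 ± 0.04 (edgeR adjusted p = 0.0444). It was not called without Ctrl replicate 1 (edgeR adjusted p = 0.413), without Ell3 KD replicate 1 (edgeR adjusted p = 0.187) or without Ell3 KD replicate 2 (edgeR adjusted p = 0.147), nor with RLE factors (adjusted p = 0.0508) or DESeq2 (adjusted p = 0.147). Hdac1 lay at 6.32 and 7.19 CPM in Ctrl and at 8.43 and 7.80 CPM in Ell3 KD, higher in both Ell3 KD libraries but not called (log2 fold change 0.26 ± 0.12, edgeR adjusted p = 0.0709). Without Ctrl replicate 2 it was called (edgeR adjusted p = 0.0385). The ratio of Hdac1 to Hdac2 counts was 0.0569 and 0.0697 in Ctrl and 0.0849 and 0.0780 in Ell3 KD, without overlap (exact two-sided permutation p = 0.333, the smallest possible). That outcome was fixed, because Hdac1 was above and Hdac2 below Ctrl in both Ell3 KD libraries, and it adds no support.

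Counts of Hdac1 are uncertain, because its transcript has near-identical copies in the annotation. Gm10093 matches 70.9% of the longest Hdac1 transcript at 99.4% identity, and Gm4864 matches 72.1% at 94.6%. Gm10093 had 160 to 300 counts per library and Gm4864 had 56 to 151, against 289 to 747 for Hdac1. How the counting treated reads that map to several places is not stated in the labels. Another copy, AC125456.1, matches 71.1% at 96.3% and was not analysed here. The sum over Hdac1, Gm10093 and Gm4864 was 12.2 and 11.6 CPM in Ctrl and 13.5 and 13.5 CPM in Ell3 KD.

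The other deacetylase genes were not called. Hdac3, the enzyme of the NCoR complex, and Hdac8, which deacetylates the cohesin subunit SMC3, were lower in both Ell3 KD libraries, with log2 fold changes of -0.19 ± 0.09 and -0.14 ± 0.07 (edgeR adjusted p = 0.0925 and adjusted p = 0.0949). Both were called lower with scaling by library totals alone (adjusted p = 0.0435 for Hdac3 and 0.0334 for Hdac8), and Hdac8 also without Ctrl replicate 2 (edgeR adjusted p = 0.0145). Hdac6, which deacetylates tubulin, lay at 25.4 and 26.1 CPM in Ctrl and 29.1 and 26.9 CPM in Ell3 KD (0.12 ± 0.06, edgeR adjusted p = 0.127). With the length and GC trend removed it was called higher (0.22, adjusted p = 0.00672). Of the class IIa genes, Hdac4 had a log2 fold change of 0.01 ± 0.09 and Hdac9 of -0.53 ± 0.27 (edgeR adjusted p = 0.111). Hdac9 was called lower without Ctrl replicate 1 (-0.77, edgeR adjusted p = 0.0270). Hdac10 and Hdac11 lay at about 1 CPM, with intervals of -0.57 to 0.72 and -0.30 to 0.86.

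Of the 7 sirtuin genes, 2 fell and none rose by edgeR, against 21.8% and 21.1% of all genes tested. At 5 CPM or more, where all 7 lie, those shares were 25.3% and 27.2%. The median log2 fold change of the 7 sirtuin genes was -0.10. No sirtuin was higher at an unadjusted edgeR p under 0.05 (0 higher, 2 lower), and DESeq2 and limma-voom called 0 higher and 1 and 2 lower. Without Ctrl replicate 2, 1 was called lower. Sirt7, the sirtuin known from the nucleolus, lay at 158 and 155 CPM in Ctrl and at 135 and 132 CPM in Ell3 KD. The groups were well apart, and the log2 fold change was -0.23 ± 0.04 (edgeR adjusted p = 1.21e-05). Sirt6, a chromatin-bound sirtuin at a like level, lay at 136 and 136 CPM in Ctrl and at 132 and 128 CPM in Ell3 KD and was not called (-0.06 ± 0.04, edgeR adjusted p = 0.200). With scaling by library totals alone it was called lower (edgeR adjusted p = 0.0321). The ratio of Sirt7 to Sirt6 counts was 1.16 and 1.15 in Ctrl and 1.02 and 1.03 in Ell3 KD, without overlap (exact two-sided permutation p = 0.333, the smallest possible). With 2 libraries per group that test cannot reach a smaller p, so it adds no support. Exons of Sirt7 share 2.41% of their length with Mafg on the same strand.

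Sirt1, a nuclear deacetylase of histones and transcription factors, lay at 14.2 and 14.4 CPM in Ctrl and at 12.8 and 11.04 CPM in Ell3 KD. Both Ell3 KD libraries were lower (log2 fold change -0.26 ± 0.09, edgeR adjusted p = 0.0225). It was not called without Ctrl replicate 2 (edgeR adjusted p = 0.0574), without Ell3 KD replicate 2 (edgeR adjusted p = 0.304), with DESeq2 (adjusted p = 0.126) or with all libraries thinned to the smallest total (edgeR adjusted p = 0.0802). The mitochondrial sirtuin genes did not pass the test. Sirt3 had a log2 fold change of -0.24 ± 0.13 and was called lower without Ell3 KD replicate 2 (-0.40, edgeR adjusted p = 0.0409). Sirt4 had 0.10 ± 0.06 and Sirt5 -0.10 ± 0.09. Sirt2, a mostly cytoplasmic tubulin deacetylase, had 0.01 ± 0.08, with an interval of -0.14 to 0.17. Of the 5973 exonic bases of Sirt3, 418 overlap Ric8a and 342 overlap Psmd13 on the opposite strand. Ric8a had 526 to 729 counts per library and Psmd13 325 to 470, against 322 to 492 for Sirt3, so its counts are uncertain if strand was not used.

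The bromodomain readers moved in both directions, and 7 of 8 were called, 4 higher and 3 lower, against 52.5% of all genes at 5 CPM or more, where all 8 lie. The number lower was 1 without either Ell3 KD replicate, with DESeq2, with no filter on low counts and with the length and GC trend removed. Brdt lay at 390.3 and 383 CPM in Ctrl and at 470 and 497 CPM in Ell3 KD. The gene lies on chromosome 5 from 107331159 to 107387058 of GRCm38. Its p was the smallest among the 36 genes, and it was 24.9% higher in mean CPM (log2 fold change 0.32 ± 0.03, edgeR adjusted p = 1.53e-08). Both Ell3 KD libraries were above both Ctrl libraries. Brd2, a BET paralog, went the other way, from 124 and 126 CPM in Ctrl to 119 and 114 CPM in Ell3 KD (-0.10 ± 0.04, edgeR adjusted p = 0.0311). Brd3, also of the BET family, overlapped between groups, at 57.9 and 60.6 CPM in Ctrl and 57.9 and 58.2 CPM in Ell3 KD (-0.03 ± 0.05).

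The ratio of Brdt to Brd2 counts was 3.14 and 3.04 in Ctrl and 3.96 and 4.34 in Ell3 KD. These ratios could not overlap, because Brdt was above and Brd2 below Ctrl in both Ell3 KD libraries. The exact two-sided permutation p was thereby fixed at 0.333, the smallest possible with 2 libraries per group, and adds no support. The fall of Brd2 was less firm than the rise of Brdt. It was not called without Ctrl replicate 2 (edgeR adjusted p = 0.0925), without Ell3 KD replicate 1 (edgeR adjusted p = 0.0643), without Ell3 KD replicate 2 (edgeR adjusted p = 0.304) or with DESeq2 (adjusted p = 0.101). With the length and GC trend removed its log2 fold change was 0.02. H2-DMa, on the opposite strand, overlaps 4.60% of the exonic bases of Brd2 and had 55 to 86 counts per library against at least 5681 for Brd2.

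The readers outside the BET family belong to chromatin complexes. Brd8, a subunit of the TIP60 complex, lay at 50.9 and 49.7 CPM in Ctrl and at 41.7 and 40.8 CPM in Ell3 KD, the fall with the smallest p among the readers (-0.29 ± 0.05, edgeR adjusted p = 6.40e-05). Brd7, of the PBAF remodeler, lay at 82.3 and 81.5 CPM in Ctrl and at 75.8 and 74.9 CPM in Ell3 KD (-0.12 ± 0.04, edgeR adjusted p = 0.0245). Brd9, of the non-canonical BAF remodeler, lay at 43.3 and 44.8 CPM in Ctrl and at 48.9 and 49.9 CPM in Ell3 KD (0.16 ± 0.05, edgeR adjusted p = 0.0108). Brd1, a scaffold of MYST acetyltransferases, lay at 48.6 and 48.7 CPM in Ctrl and at 54.6 and 53.7 CPM in Ell3 KD (0.16 ± 0.05, edgeR adjusted p = 0.0108). In all 4 the groups did not overlap. Brd7 was not called without Ctrl replicate 1, Ell3 KD replicate 1 or Ell3 KD replicate 2 (edgeR adjusted p = 0.0750, adjusted p = 0.104 and adjusted p = 0.172), nor with DESeq2 (adjusted p = 0.0969). Brd9 was not called without Ctrl replicate 1 (edgeR adjusted p = 0.0718) or Ell3 KD replicate 2 (edgeR adjusted p = 0.0807), and Brd1 was not called without Ell3 KD replicate 1 (edgeR adjusted p = 0.0924) or with scaling by library totals alone (edgeR adjusted p = 0.0527).

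**Figure D3:**
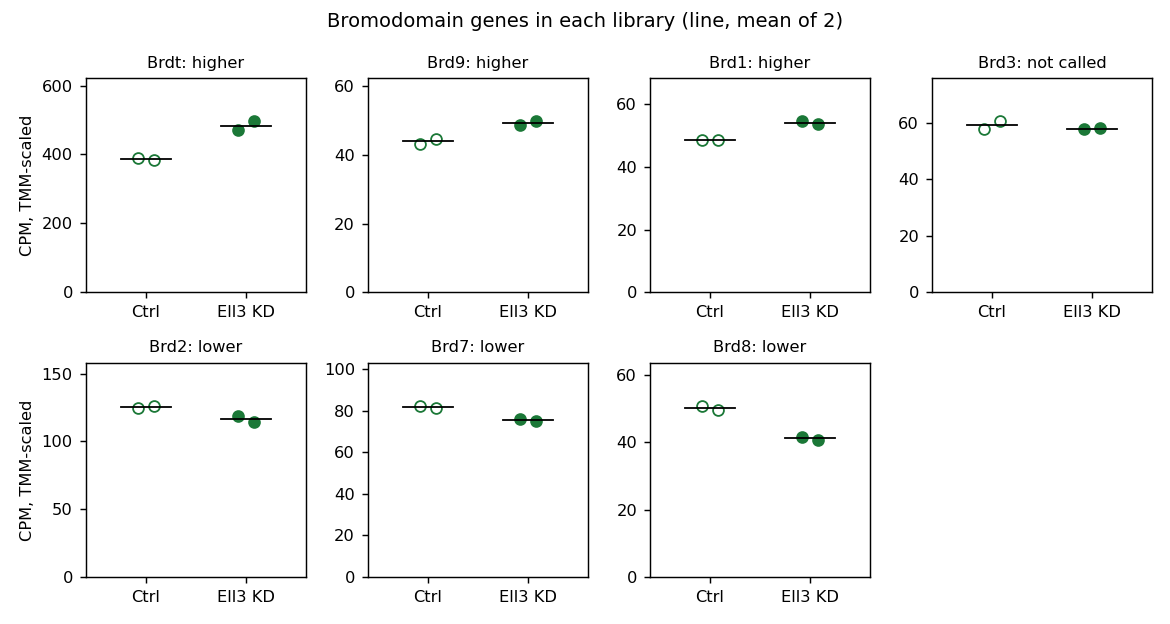
CPM of 7 bromodomain genes in each library (open points, Ctrl; filled points, Ell3 KD; line, mean of 2), each panel starting at 0. Brdt, Brd9 and Brd1 lie higher and Brd2, Brd7 and Brd8 lower in both Ell3 KD libraries, and Brd3 overlaps.

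Partner subunits of the acetyltransferases were called in both directions. The background for this and every further list is the 21.1% of all genes tested that were higher and the 21.8% that were lower. At 5 CPM or more, where most tested genes of each list lie, those shares were 27.2% and 25.3%. Of 16 TIP60 partners, 6 rose and 4 fell, and with library totals alone 4 rose and 5 fell. Their median log2 fold change was 0.09. Trrap, the large scaffold shared with SAGA, went from 26.2 ± 1.51 to 16.5 ± 0.108 CPM (-0.67 ± 0.07, edgeR adjusted p = 3.45e-08). The ATPase gene Ruvbl1 fell by 0.34 ± 0.05 on the log2 scale, Mbtd1 rose by 0.26 ± 0.04 and Vps72 by 0.20 ± 0.03, and Ruvbl2 had 0.09 ± 0.04 (edgeR adjusted p = 0.0592). Of 23 genes of the SAGA and ATAC modules, 8 rose and 3 fell, with a median of 0.01. The number lower was 1 without Ctrl replicate 1, without either Ell3 KD replicate and with DESeq2, and 5 with the replicate block or library totals alone. Eny2 of the deubiquitinase module rose by 0.29 ± 0.03, Mbip by 0.33 ± 0.05, the reader Sgf29 by 0.16 ± 0.03 and Taf9b by 0.15 ± 0.03, while Wdr5, which ATAC shares with methyltransferase complexes, fell by 0.34 ± 0.04.

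The partners of Kat8 and other MYST enzymes were called lower more often than higher, with 6 of 16 lower and 1 higher and a median of -0.06. Of the NSL complex, in which Kat8 works, Ogt fell by 0.54 ± 0.06, Kansl2 by 0.34 ± 0.05 and Phf20 by 0.15 ± 0.03, while Mcrs1 had -0.06 ± 0.04 (edgeR adjusted p = 0.298). Msl1, the scaffold of the other Kat8 complex, rose by 0.42 ± 0.07. Phf20 was abundant, at 487 ± 0.702 CPM in Ctrl and 437 ± 1.41 CPM in Ell3 KD. Against the background of 21.8% of genes called lower, or 25.3% at 5 CPM or more, these counts describe the list and do not test it.

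Among partners of the deacetylases, the SIN3 list had 6 of 16 genes higher and none lower by edgeR, with a median of 0.09. At an unadjusted edgeR p under 0.05 it had 7 higher and 0 lower, with DESeq2 5 and 0, and with limma-voom 6 and 0. With library totals alone edgeR called 5 higher and 2 lower. Rbbp7, a histone chaperone shared with NuRD, went from 3704 ± 63.8 to 4005 ± 123.3 CPM (0.11 ± 0.03, edgeR adjusted p = 9.16e-04), and Sap18 rose by 0.23 ± 0.03 and Arid4a by 0.24 ± 0.06. Of 13 NuRD partners, 2 rose and 2 fell (2 and 5 with library totals alone). The pair that fell were low in level: the remodeler gene Chd3, from 3.69 ± 0.290 to 1.91 ± 0.0575 CPM, and Mta2, from 1.97 ± 0.220 to 0.889 ± 0.0765 CPM. Gatad2a, the most abundant NuRD gene after Rbbp7, had -0.04 ± 0.03.

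Of 16 genes of the CoREST, NCoR and MiDAC complexes, 5 rose and 5 fell, with a median of 0.06. The number higher was 2 without Ctrl replicate 1, 3 without either Ell3 KD replicate, 3 with library totals alone and 2 with DESeq2. The corepressor gene Ncor1, partner of Hdac3, rose from 42.0 ± 1.06 to 57.1 ± 0.550 CPM (0.44 ± 0.05, edgeR adjusted p = 8.94e-08). Among other NCoR subunits of the list, those named by the rule fell, Gps2 from 66.8 ± 2.63 to 55.9 ± 0.0843 CPM and Tbl1x from 1.37 ± 0.476 to 0.0550 ± 0.0340 CPM (log2 fold changes -0.26 and -4.51). Of 26 other genes with a bromodomain or YEATS domain, 6 rose and 6 fell (3 and 5 with DESeq2, 9 and 4 with the length and GC trend removed), with a median of 0.00045. Trim28 rose by 0.43 ± 0.05 and Mllt3, a YEATS reader of the super elongation complex, by 0.25 ± 0.04, while Baz2b fell by 0.37 ± 0.04 and the abundant Cecr2 by 0.12 ± 0.03.

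The cosubstrates of these enzymes come from metabolism. Of 10 genes of acetyl-CoA supply tested, 1 rose and 3 fell, with a median of -0.01. The count was 1 and 1 without Ell3 KD replicate 2 and with the length and GC trend removed, and 0 rose without Ctrl replicate 2 or Ell3 KD replicate 1. Of these genes, Acly, which makes cytosolic acetyl-CoA from citrate, fell by 0.23 ± 0.06, the pyruvate dehydrogenase subunit gene Dlat fell by 0.15 ± 0.04, and Pdhx rose by 0.11 ± 0.03. Acat1 had -0.08 ± 0.03 (edgeR adjusted p = 0.0720). Of 10 genes of NAD supply and use tested, 3 fell and none rose by edgeR, with 0 higher and 3 lower at an unadjusted p under 0.05, 0 and 2 with DESeq2 and 0 and 3 with limma-voom. With the length and GC trend removed 1 was higher and 3 lower, and the median without that step was -0.09. The genes that fell were Nmnat3, at 0.759 ± 0.0711 and 0.130 ± 0.119 CPM, Nudt12 (-0.73 ± 0.15) and Nmrk1 (-0.33 ± 0.10). For Nmnat3 the fall rests on few counts, 37 and 35 in Ctrl and 19 and 3 in Ell3 KD. Nampt, the main enzyme of NAD salvage, lay at 25.2 ± 0.0387 and 24.8 ± 1.41 CPM and was not called (edgeR adjusted p = 0.787), nor was Parp1 (0.14 ± 0.08). Of 17 other acetyltransferase or related genes, 2 rose and 8 fell, with a median of -0.13. The number lower was 2 without Ctrl replicate 1, 3 without Ell3 KD replicate 1, 4 without Ell3 KD replicate 2, 2 with DESeq2 and 4 with the length and GC trend removed. Naa60 fell by 0.54 ± 0.10 and Cdyl by 0.28 ± 0.05, Naa50 rose by 0.17 ± 0.03, and the cohesin acetyltransferase gene Esco2, at 638 ± 17.2 and 644 ± 13.4 CPM, was not called (edgeR adjusted p = 0.730).

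**Figure D4:**
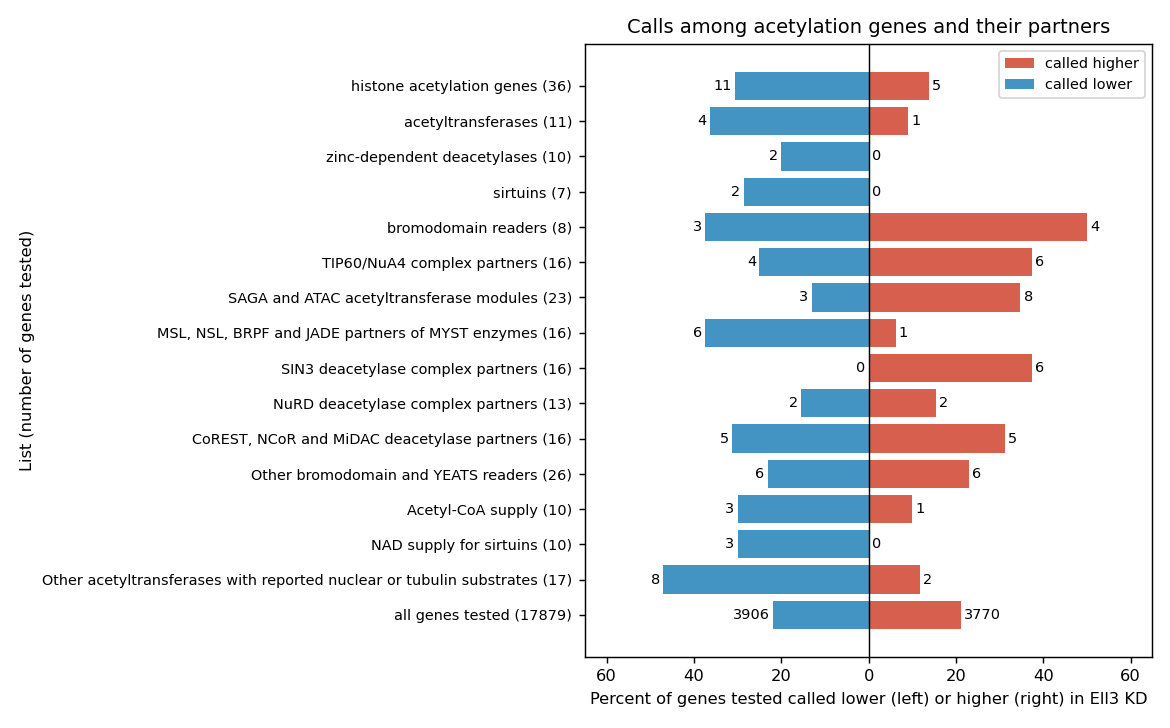
Percent of the genes tested in each list that were called lower (bars to the left) or higher (bars to the right) in Ell3 KD, with the number of genes beside each bar. All genes tested, at the bottom, had 21.8% lower and 21.1% higher.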

How the data were processed

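RNA of 2 Ctrl and 2 Ell3 KD libraries was measured by Smart-seq2 (16 PCR cycles, paired reads of 150 bp, per the labels' protocols). The deposited values are raw counts, one per gene symbol and library. The submitters' processing notes name HISAT2 2.2.1.0, featureCounts, FastQC 0.11.5 and mm10. The sources used here give no annotation, strand or multi-mapping setting. All 4 libraries were fitted in R 4.3.3 with edgeR 4.0.16 (filterByExpr, TMM, glmQLFit, glmQLFTest, two-sided, Benjamini-Hochberg over 17879 genes), and the script was tested on simulated data. Alternatives used limma 3.58.1 (limma-voom), DESeq2 1.42.0, other scalings and filters, a replicate block, thinning, an assumed spread and left-out libraries. A count of 0 allowed up to 0.0339 to 0.0657 CPM by library (3 counts), for counting error only, because PCR copies are not independent molecules. Coordinates, exons and lengths came from GENCODE M21 (GRCm38, which mm10 names), where all 37 genes matched. Copies were sought with blastn (at least 90% identity over 50% of the transcript). The genes and lists were chosen with earlier results of these data known. Genes of the rule were named, with the 2 most abundant of each list and, in pathway lists, up to 3 called genes of smallest p. Of the 37 genes, 1 is counted in the totals but not reported here.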

Additional observations from a re-analysis of the deposited data

How the results depend on the processing

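Of the 16 genes called, 7 kept their call in all 13 settings other than an assumed coefficient of variation, 3 higher, among them Brdt and Hat1, and 4 lower: Kat8, Sirt7, Brd8 and Hdac7. Of these, Hdac7 had no value under the filter on a mean of 1 CPM, which removes it. Leaving out each library in turn gave 4 to 6 genes higher, 7 to 10 lower and 1 to 2 changed at least 1.5-fold. With the assumed coefficient of variation of 0.2, 0 were higher and 1, Hdac7, lower. DESeq2 called 5 lower and removal of the length and GC trend left 6 lower. The filter on a mean of 1 CPM left 0 changed at least 1.5-fold.

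Signs of 10 genes turned under some setting. With the length and GC trend removed the log2 fold change was 0.0247 for Brd2, 0.0614 for Brd3, 6.41e-05 for Crebbp, 0.0459 for Kat2a, 0.0492 for Kat6b and 0.0114 for Kat7. With library totals alone it was -0.0291 for Hdac4 and -0.0256 for Sirt2, and with no filter 0.00287 for Kat6b. Over the left-out libraries the Brd3 log2 fold change ranged from -0.0651 to 0.00104, the Hdac4 log2 fold change from -0.0600 to 0.0816, Hdac10 from -0.115 to 0.283, Kat5 from -0.145 to 0.0503 and Sirt2 from -0.0550 to 0.0831. Of these genes Brd2 and Crebbp had been called, and the cause was not tested.

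Libraries of the groups share a replicate number only. Deviations of same-numbered libraries correlated at 0.0294 over genes, and with the replicate number as a block 5 genes were higher, 11 lower and 1 changed at least 1.5-fold, with no call changed. The Ell3 level had a log2 fold change between -1.79 and -1.52 over the left-out libraries and of -1.65 with the block. Depth limits Hdac5, Kat2b, Hdac7, Hdac9, Hdac10 and Hdac11, all with 117 or fewer counts in each library.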
